A study of Mus musculus with 3 samples.

Results

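The loci of 2 repressor genes, *Gfi1* and *Gfi1b*, were examined out of 21670 protein-coding genes with a start on chromosomes 1 to 19 and X. They were chosen by name, and the region described was the gene body plus 60 kb on either side in the mm10 mouse genome. The cells were long-term hematopoietic stem cells (HSCs), sorted as LSK CD48- CD150+ CD34- from the bone marrow of wild-type, 8-week-old female C57BL/6 mice (C57BL6/J in the methods of the study), for which no treatment is named. They were profiled by DOGMA-seq, which reads open chromatin, RNA and antibody tags from the same nuclei, as 1 ATAC library, 1 RNA library and 1 tag library. There was 1 library of each kind, so no condition was compared with another and no value has a replicate. Of 3757 called cells, 3108 had more than 3000 fragments in peaks and were used (82.7%). Their median was 11457 fragments (lowest 3977, highest 194399) and 8039 fragments in peaks, and their median RNA depth was 3860.5 UMIs. A cell was counted as open at an interval when at least 1 end of its fragments, a transposase cut, lay in it. Intervals are exact 95% binomial or Poisson intervals and cover counting error only.

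GFI1 and GFI1B are zinc-finger transcription factors that share an N-terminal SNAG domain, through which they recruit LSD1 (*Kdm1a*), CoREST proteins and histone deacetylases to repress their targets. GFI1 restrains HSC proliferation and is needed for granulocyte and lymphoid development. GFI1B keeps HSCs quiescent as well, and is needed for erythroid cells and megakaryocytes. Both proteins can bind the regulatory DNA of both genes and repress them, and enhancers at a distance from the promoters have been described for each locus.

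The promoters and the strongest distal sites of the loci are shown first. At each locus, the most open 500-bp bin apart from other protein-coding starts lay away from the promoter. Each distal sequence is the 300 bp of its site with the most fragment ends, read from GRCm38 on the + strand. Each promoter is RefSeq's 250 bases before and 50 bases after the start, on the - strand of the same build, on which both genes lie. Distances count from the start of the gene, positive downstream. Capitals mark matches, on either strand, to strings of factors that act in blood stem cells. GFI1 and GFI1B bind the core AAATCA, which their zinc fingers read. RUNX factors such as RUNX1 bind TGTGGT, and ETS factors such as FLI1 and ERG bind AGGAAG. The MEIS factors, partners of homeobox proteins, bind TGACAG. Zinc-finger proteins of the family of GATA2 bind AGATAA, and TAL1 with its E-protein partners binds the E-box CAGNTG. The last string, of 12 positions, is part of the motif of the insulator protein CTCF, and matches may overlap.
Gfi1 promoter, chr5:107725756-107726055 (-): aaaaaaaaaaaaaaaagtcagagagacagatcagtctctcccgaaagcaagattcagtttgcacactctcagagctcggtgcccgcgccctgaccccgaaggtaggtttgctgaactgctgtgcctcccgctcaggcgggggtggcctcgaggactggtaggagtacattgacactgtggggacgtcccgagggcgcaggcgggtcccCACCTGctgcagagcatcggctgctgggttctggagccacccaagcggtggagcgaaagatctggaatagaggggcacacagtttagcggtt
Gfi1 -33.4 kb site, chr5:107759176-107759475 (+): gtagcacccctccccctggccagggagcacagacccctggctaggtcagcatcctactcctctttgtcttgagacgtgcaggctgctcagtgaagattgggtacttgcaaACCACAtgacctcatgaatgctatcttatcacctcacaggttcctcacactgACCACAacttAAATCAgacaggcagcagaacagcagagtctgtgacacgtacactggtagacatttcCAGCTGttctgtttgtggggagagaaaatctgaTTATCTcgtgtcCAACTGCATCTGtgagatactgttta
Gfi1 +37.6 kb site, chr5:107688027-107688326 (+): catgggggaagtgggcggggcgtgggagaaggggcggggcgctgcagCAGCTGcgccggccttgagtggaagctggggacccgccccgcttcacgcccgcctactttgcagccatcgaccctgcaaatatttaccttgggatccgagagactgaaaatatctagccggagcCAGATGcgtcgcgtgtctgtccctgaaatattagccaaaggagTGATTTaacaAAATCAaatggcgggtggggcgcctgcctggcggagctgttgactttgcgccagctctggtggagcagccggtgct
Gfi1 -23.9 kb site, chr5:107749616-107749915 (+): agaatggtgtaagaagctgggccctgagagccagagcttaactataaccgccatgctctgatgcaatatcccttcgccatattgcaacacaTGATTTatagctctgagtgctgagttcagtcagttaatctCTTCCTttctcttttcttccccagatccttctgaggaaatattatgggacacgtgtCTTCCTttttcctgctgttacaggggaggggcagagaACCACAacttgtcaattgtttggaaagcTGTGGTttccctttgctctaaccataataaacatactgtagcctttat
Gfi1b promoter, chr2:28621933-28622232 (-): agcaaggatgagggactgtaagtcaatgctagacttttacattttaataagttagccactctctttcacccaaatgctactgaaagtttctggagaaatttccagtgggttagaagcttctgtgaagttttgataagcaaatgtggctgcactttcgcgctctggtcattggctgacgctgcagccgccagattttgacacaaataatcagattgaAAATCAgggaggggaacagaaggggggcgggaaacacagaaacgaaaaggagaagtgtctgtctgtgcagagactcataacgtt
Gfi1b +23.7 kb site, chr2:28598134-28598433 (+): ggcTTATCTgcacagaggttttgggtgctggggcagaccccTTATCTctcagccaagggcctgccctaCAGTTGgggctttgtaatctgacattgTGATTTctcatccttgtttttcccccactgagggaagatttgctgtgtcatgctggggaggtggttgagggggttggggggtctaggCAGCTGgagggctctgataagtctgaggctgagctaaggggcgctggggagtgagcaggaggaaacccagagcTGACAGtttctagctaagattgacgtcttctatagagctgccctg
Gfi1b +36.7 kb site, chr2:28585185-28585484 (+): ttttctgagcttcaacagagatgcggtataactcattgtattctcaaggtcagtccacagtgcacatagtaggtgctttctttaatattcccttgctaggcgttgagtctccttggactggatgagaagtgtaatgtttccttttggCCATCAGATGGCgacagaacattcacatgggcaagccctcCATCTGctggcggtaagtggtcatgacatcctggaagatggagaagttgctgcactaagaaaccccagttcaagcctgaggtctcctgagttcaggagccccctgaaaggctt

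At *Gfi1* (chr5:107716657-107726036, - strand), the chromatin most often open in HSCs was not at the promoter but 33.4 kb upstream of the start, inside an intron of the neighboring gene *Evi5*. The strongest 500-bp bin there was open in 1146 of 3108 cells (36.9%, interval 35.2 to 38.6). Only 284 of 5106360 genome bins away from protein-coding starts were open in as many cells or more. The 1000 bp around the *Gfi1* start used were open in 277 cells (8.91%, interval 7.93 to 9.97). The other annotated *Gfi1* starts, 1.46 kb downstream and 0.23 kb upstream, had 234 cells (7.53%) and 227 cells (7.30%). The window had 260 bins with a median of 6 open cells, and 34 bins (13.1%) reached the limit for an open site, which was 5 times that median (30 cells). Over the genome, 3.56% of bins reached 30 cells.

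The 34 open bins of the *Gfi1* window formed 8 open sites, and 78.9% of all bin openings in the window lay in them. The site that holds the promoter was a broad run of 7500 bp (chr5:107720001-107727500) over much of the gene, open in 1039 cells (33.4%, interval 31.8 to 35.1). It also holds the start of *A430072P03Rik*, a processed transcript on the + strand. The highest bin of the site lay 4.1 kb downstream of the *Gfi1* start, in a *Gfi1* exon, and was open in 283 cells (9.11%). The -33.4 kb site, by contrast, reached 1208 cells (38.9%, interval 37.1 to 40.6) over 2000 bp. The +37.6 kb site was open in 476 cells (15.3%, interval 14.1 to 16.6). It holds the starts of the non-coding genes *Gm26692* and *5830411K02Rik*, so it is a promoter of other transcripts as well as a distal site in the *Gfi1* window. More sites in *Evi5* introns followed at -23.9 kb, with 405 cells (13.03%), and at -42.4 kb, with 243 cells (7.82%). The weakest sites were at +7.6 kb in a *Gfi1* intron (80 cells, 2.57%), +26.6 kb (71 cells, 2.28%) and +17.6 kb (46 cells, 1.48%).

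**Figure D1:**
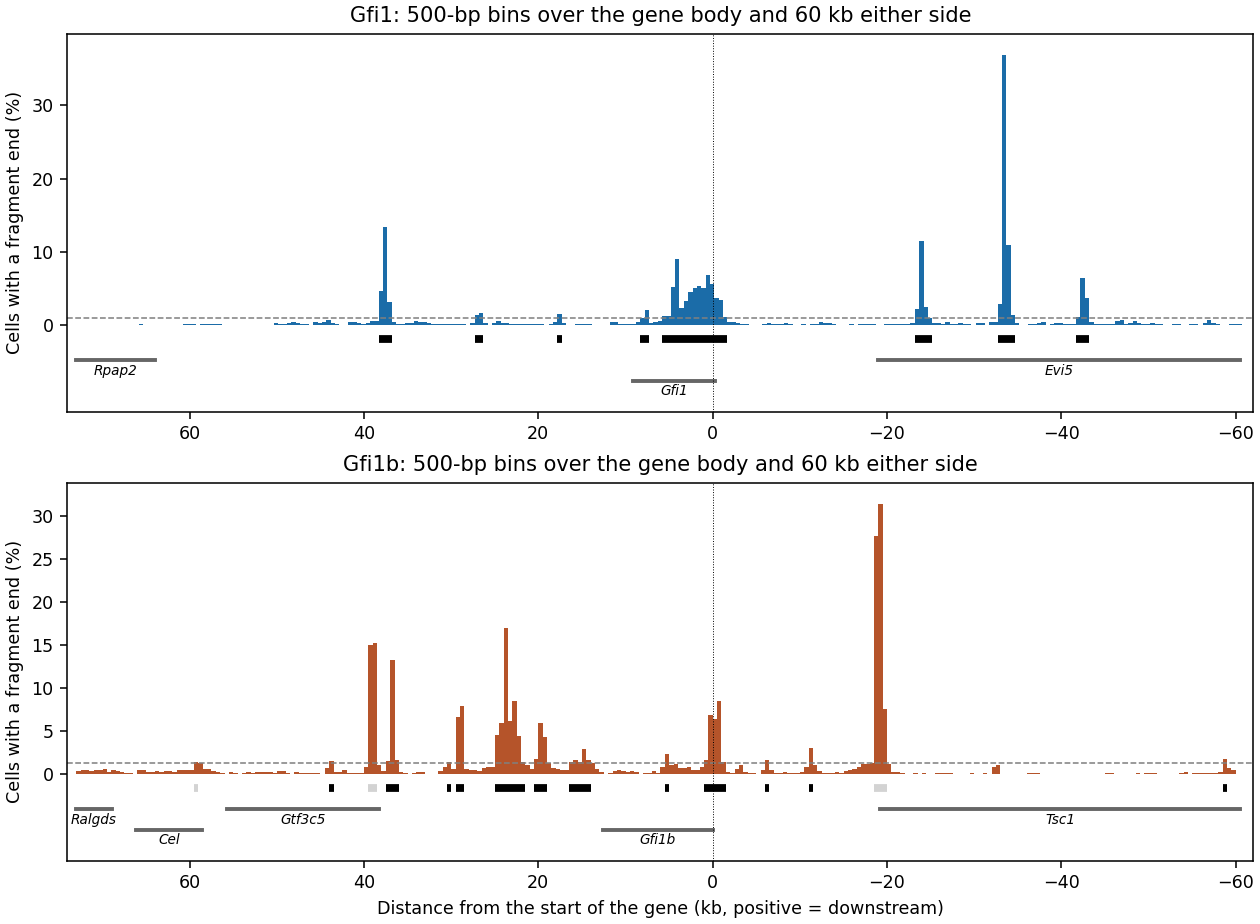
Share of the 3108 cells with a fragment end in each 500-bp bin (y axis, %) against the distance from the start of *Gfi1* (top) and *Gfi1b* (bottom) in kb, with transcription running from right to left. Dashed lines mark 5 times the median bin, black bars the open sites, light grey bars sites at another protein-coding start, and grey lines gene bodies; the tallest bin of the *Gfi1* window is at -33.4 kb (36.9%), and the tallest of the *Gfi1b* window belongs to the *Tsc1* promoter (31.4%).

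At *Gfi1b* (chr2:28609450-28621982, - strand), openness was spread over a series of sites beyond the 3' end of the gene. Apart from sites at the starts of other protein-coding genes, the strongest bin of the locus lay 23.7 kb downstream of the start, between genes, and was open in 529 cells (17.02%, interval 15.7 to 18.4). At 2034 of 5106360 distal genome bins the number of open cells was the same or higher. The promoter window was open in 320 cells (10.3%, interval 9.25 to 11.4), and a second annotated start 37 bp away gave 281 cells (9.04%). The window had 266 bins with a median of 8.5 open cells. The limit was therefore 42.5 cells, which 37 bins (13.9%) reached, against 2.65% of genome bins.

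These bins formed 15 sites in the *Gfi1b* window, of which 3 lay within 1 kb of the start of another protein-coding gene and were left out. They belonged to *Cel*, the carboxyl ester lipase gene, *Gtf3c5*, a subunit gene of transcription factor IIIC, and *Tsc1*, a tumor suppressor gene of the mTOR pathway. The *Tsc1* promoter site, at -19.3 kb, was the most open of the whole window, with 1255 cells (40.4%). The 12 remaining sites held 44.1% of the bin openings. The +23.7 kb site (3500 bp) was open in 893 cells (28.7%, interval 27.1 to 30.4), the promoter site in 486 cells (15.6%, interval 14.4 to 16.96) and the +36.7 kb site in 428 cells (13.8%, interval 12.6 to 15.0). The sites at +28.7 kb (293 cells, 9.43%), +19.7 kb (270 cells, 8.69%) and +14.7 kb (191 cells, 6.15%) filled the space between the gene and the strongest ones. The 6 others, at +43.7, +30.2, +5.2, -6.3, -11.3 and -58.8 kb, were each open in 44 to 94 cells (1.42% to 3.02%). In order of openness, the intervals of the +36.7 kb and promoter sites overlapped, whereas that of the +23.7 kb site lay above both.

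Among all genes, the promoters of both members were in the middle of the range, whereas the strongest distal bin of each was in the upper part of it. The median protein-coding promoter was open in 8.46% of cells (quartiles 0.386% and 26.0%), and 50.9% of genes had a lower value than *Gfi1* and 53.6% a lower value than *Gfi1b*. The strongest distal bin within 60 kb was weaker than that of *Gfi1* for 97.6% of genes and weaker than that of *Gfi1b* for 84.9%. For the number of sites, 47.5% of genes had fewer than the 8 of *Gfi1* and 77.5% fewer than the 12 of *Gfi1b*. The promoters of the neighbors were open in 16.2% (*Evi5*) and 24.9% of cells (*Rpap2*, which encodes an RNA polymerase II-associated protein) at the *Gfi1* locus. At the *Gfi1b* locus they were open in 39.9% (*Tsc1*), 21.0% (*Gtf3c5*), 13.5% (*Ralgds*, a Ral exchange factor gene) and 1.83% (*Cel*). Long genes have longer windows, and among the 11654 genes with a body under 20 kb the shares with a weaker strongest bin were 97.54% and 84.2%. Among these genes, 64.0% had fewer sites than *Gfi1* and 92.3% fewer than *Gfi1b*.

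At the recalled distances of positions named in earlier enhancer studies, few cells were open, and the strongest distal bins lay outside the windows counted. Those positions are known here only as approximate distances, recalled and not checked against a sequence, and 2 kb around each was counted. At *Gfi1*, +35 kb was open in 24 cells (0.772%), +10 kb in 17 (0.547%), +5.8 kb in 82 (2.64%) and -1.2 kb in 209 (6.72%). The windows at +5.8 and -1.2 kb overlapped the promoter site, those at +35 and +10 kb overlapped no open site, and the nearest site to the +35 kb position was the one at +37.6 kb. At *Gfi1b*, +13 kb was open in 51 cells (1.64%), +16 kb in 115 (3.70%) and +17 kb in 79 (2.54%). The windows of all 3 overlapped the +14.7 kb site, that of +13 kb only at its edge. An error of 2 to 3 kb in a recalled distance could place an element in a neighboring site.

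The length of the fragments varied among the sites, distal and promoter sites alike. Fragments too short to span the DNA of a nucleosome made up 45.6% of all fragments of these cells. They were 69.0% at the -33.4 kb site of *Gfi1* (median length 97 bp) and 66.7% at the +36.7 kb site of *Gfi1b* (median 102 bp). At the broad *Gfi1* promoter site they were 30.1% (median 208 bp), and at the *Gfi1b* promoter site 45.4% (median 169 bp). The +23.7 kb site of *Gfi1b* had 53.1%, while +19.7 kb and +14.7 kb had 34.0% and 31.2%.

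**Figure D2:**
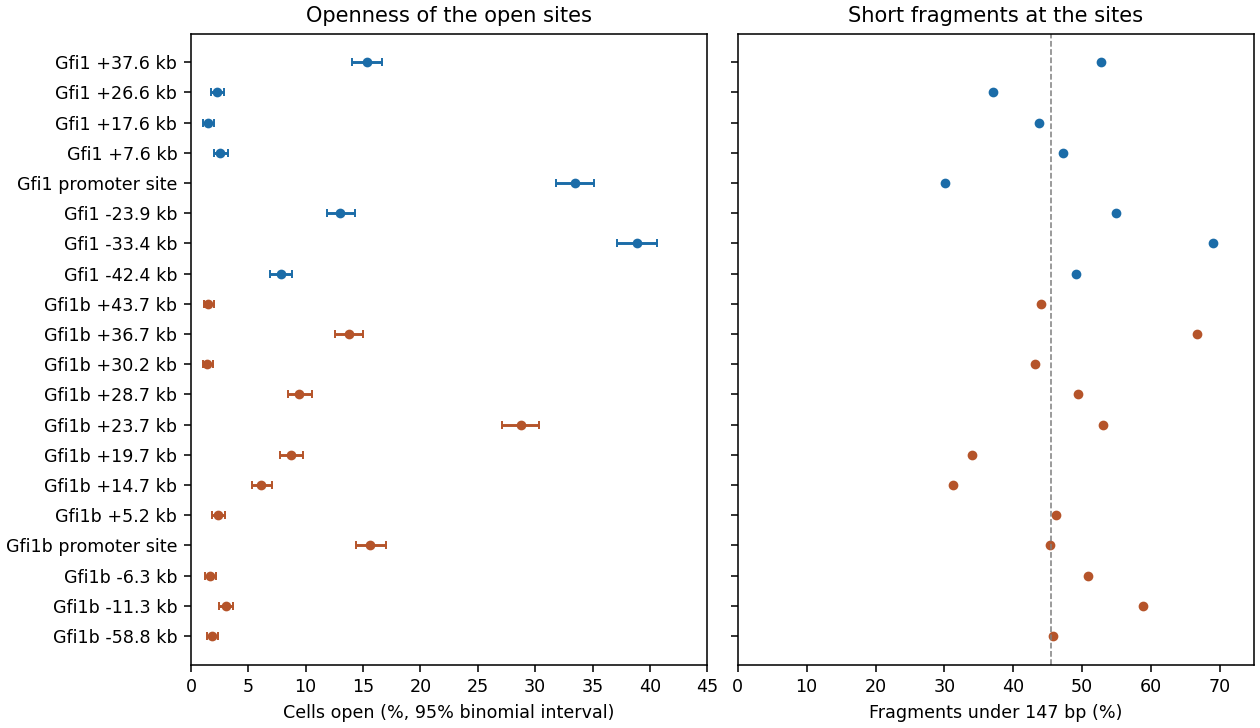
Left, the share of cells open at each of the 20 sites (%, with exact 95% binomial intervals). Right, the share of the site's fragments that are shorter than the DNA of a nucleosome (%), with all fragments of the cells at the dashed line (45.6%); the -33.4 kb site of *Gfi1* is highest in both panels (38.9% and 69.0%).

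Both loci held matches to the strings of blood transcription factors. In the 300 bp of the -33.4 kb site printed above, 3 E-box, 2 RUNX, 1 GATA and 1 GFI1/GFI1B match were found. The +23.7 kb site of *Gfi1b* had 2 GATA, 2 E-box, 1 GFI1/GFI1B and 1 MEIS match. The +37.6 kb site of *Gfi1* had 2 GFI1/GFI1B matches and 2 E-boxes. The -23.9 kb site had 2 ETS, 2 RUNX and 1 GFI1/GFI1B match. The *Gfi1b* promoter had 1 GFI1/GFI1B match. The *Gfi1* promoter printed above had 1 E-box, and that of the RefSeq start further downstream (chr5:107724294-107724593) had 1 ETS match, with none of the other strings in either. Over the 20 sites, the GFI1/GFI1B string was in 5, the GATA string in 4, the ETS string in 7, the RUNX string in 7, the E-box in 14 and the MEIS string in 4. Over the 10 sites whose top bin was open in at least 5% of cells, the counts were 4, 3, 3, 3, 7 and 2. Among 20061 protein-coding promoters of 300 bp the shares were 12.1%, 9.42%, 34.1%, 14.6%, 48.4% and 18.3% in that order, and among 19218 distal bins open in at least 5% of cells they were 13.8%, 12.8%, 41.9%, 23.7%, 57.6% and 19.5%. The CTCF string was added after the sequences were seen. It was in the +36.7 kb and +28.7 kb sites of *Gfi1b* and 5 of the 20 sites in all, all at *Gfi1b* (3 of the 10 sites over 5%), against 2.40% of promoters and 11.4% of distal bins. At +36.7 kb it overlaps an E-box match. The sequences of the distal bins were the central 300 bp of each fixed bin, whereas those of the sites were placed at the most fragment ends. Their shares are therefore not from windows placed alike. A match describes the letters and is not a measured binding site.

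The label of the cells was checked on promoters, with the same window for every gene. *Kit* (843 cells, 27.1%) and *Hoxb5* (653 cells, 21.0%) were the most open of the positive HSC genes, followed by *Fgd5* (252 cells, 8.11%) and *Procr* (187 cells, 6.02%). *Slamf1*, which encodes the CD150 used in the sort, was open in 103 cells (3.31%) and *Ly6a*, which encodes Sca-1, in 43 (1.38%). *Cd48* and *Cd34*, whose proteins the gate excluded, were open in 49 (1.58%) and 199 cells (6.40%). The 14 markers of other marrow cells had a median of 1.03%. The highest were the erythropoietin receptor gene *Epor* (14.2%) and the endothelial and HSC adhesion gene *Pecam1* (7.08%). The lowest were the neutrophil gene *Ly6g* (1 cell, 0.0322%) and the hemoglobin gene *Hba-a1* (4 cells, 0.129%). None of the 14 was at 0, and the part of other cells in the openness of the members was not tested.

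Beside the blood transcription factor genes listed for HSCs, *Gfi1* and *Gfi1b* had little-open promoters, though 50.9% and 53.6% of all genes had a lower value. All 18 factors listed for HSCs were above both, with a median of 29.7%. *Lyl1* was the highest (72.7%), and *Zbtb16* (14.6%) and *Erg* (14.4%) were the lowest. Lineage factors spanned a wider range (median 15.2%), from *Zfpm1* (76.9%) and *Nfe2* (51.1%), which act in megakaryocytes and erythroid cells, to *Klf1* (2.73%) and *Gata1* (1.06%), the erythroid regulators. Several lineage factors, these erythroid regulators among them, were below both members. The partners of the SNAG domain were open far more often than the factors that recruit them, with a median of 36.5% over 8 genes. They ranged from *Rcor1* (57.7%), which encodes CoREST, and *Hmg20b* (47.2%) down to *Rcor3* (20.9%) and the methyltransferase gene *Ehmt2* (18.5%). Of the 16 described targets of GFI1 or GFI1B (median 26.0%), *Socs1* (61.6%) and *Bcl2l1* (61.3%) were highest, and the neutrophil elastase gene *Elane* (1.06%) and the recombinase gene *Rag1* (0.804%) lowest. Of the 11 megakaryocyte and platelet genes (median 12.0%), *Itga2b* (24.8%) and *Pf4* (20.8%) were highest, and *Selp* (1.87%) and *Clec1b* (0.515%) lowest.

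**Figure D3:**
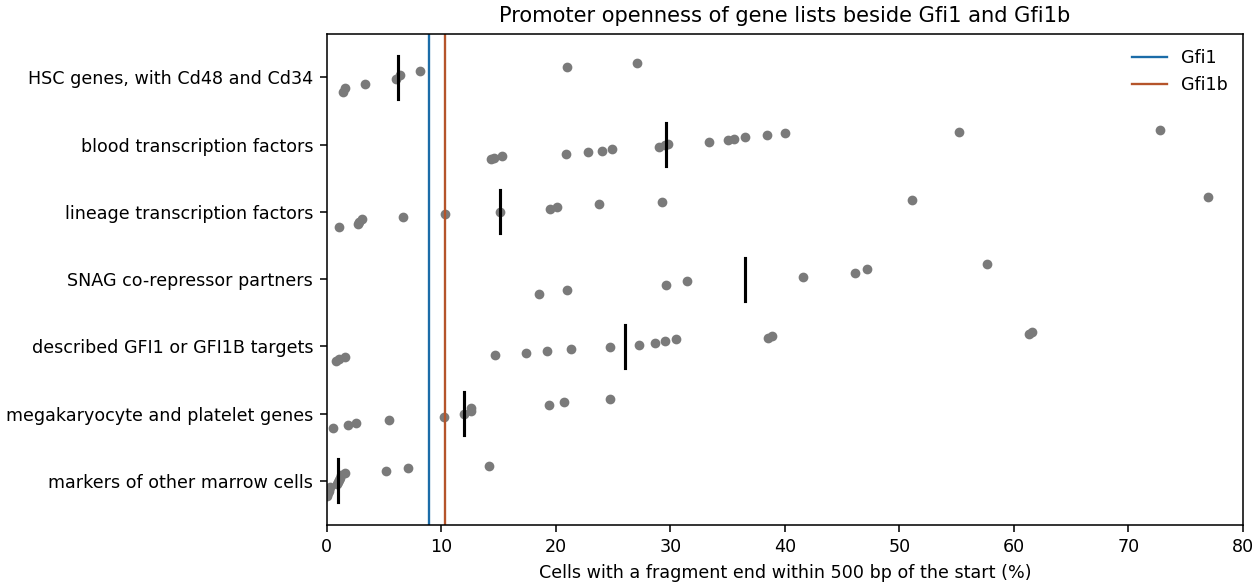
Share of cells with a fragment end within 500 bp of the start (x axis, %) for the genes of 7 lists, 1 point a gene, with black ticks at the medians and vertical lines at *Gfi1* (8.91%) and *Gfi1b* (10.3%). All 18 blood transcription factors and all 8 SNAG partners lie to the right of both lines.

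Cells open at both genes were as frequent as the depth of the cells gave. A gene was called open in a cell with at least 1 fragment end in any of its own sites. Sites were assigned to a gene by distance alone, and some lie inside *Evi5*, *Gtf3c5* or *Tsc1* or at non-coding starts. Whether they act on *Gfi1* or *Gfi1b* or on those other genes was not tested. *Gfi1* was open in 2204 cells (70.9%, interval 69.3 to 72.5) and *Gfi1b* in 1870 (60.2%, interval 58.4 to 61.9). The mean was 1.604 fragments a cell at *Gfi1* and 1.22 at *Gfi1b*. Deeper cells are open at more sites of any kind, so the expected number was computed by multiplying the 2 shares within each of 20 strata of fragments in peaks and adding the products. Both genes were open in 1367 cells (44.0%) against 1359.8 depth-matched, a ratio of 1.01 (interval 0.953 to 1.06). *Gfi1* alone was open in 837 cells (26.9%) against 844.2. *Gfi1b* alone was open in 503 (16.2%) against 510.2, and neither gene in 401 (12.9%) against 393.8. The excess of 7.23 cells open at both was smaller than the counting SD of 11.9 cells that applies when the totals of each gene and stratum are held fixed.

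Within levels of depth the ratio also stayed near 1, and for the promoters alone few cells were open at both genes. Cells were divided into 5 groups of 621 or 622 by fragments in peaks, and from the shallowest to the deepest the share open at *Gfi1* went from 56.8% to 84.7%, and that at *Gfi1b* from 44.7% to 73.6%. Cells open at both went from 26.0% (162 cells) to 62.6% (389 cells), whereas the ratio to the depth-matched number stayed between 0.970 and 1.03 over the 5 groups. At the promoters, 36 cells were open at both genes against 31.6 depth-matched (ratio 1.14, interval 0.798 to 1.58), 241 at *Gfi1* alone, 284 at *Gfi1b* alone and 2547 at neither. This ratio was above 84.8% of those of the *Gfi1* promoter with promoters on other chromosomes, and above 85.5% of those of the *Gfi1b* promoter. A cell without a fragment at a site may still have it open, since each copy of a locus yields few fragments, so these shares are shares of cells with a fragment and not of cells with an open locus.

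**Figure D4:**
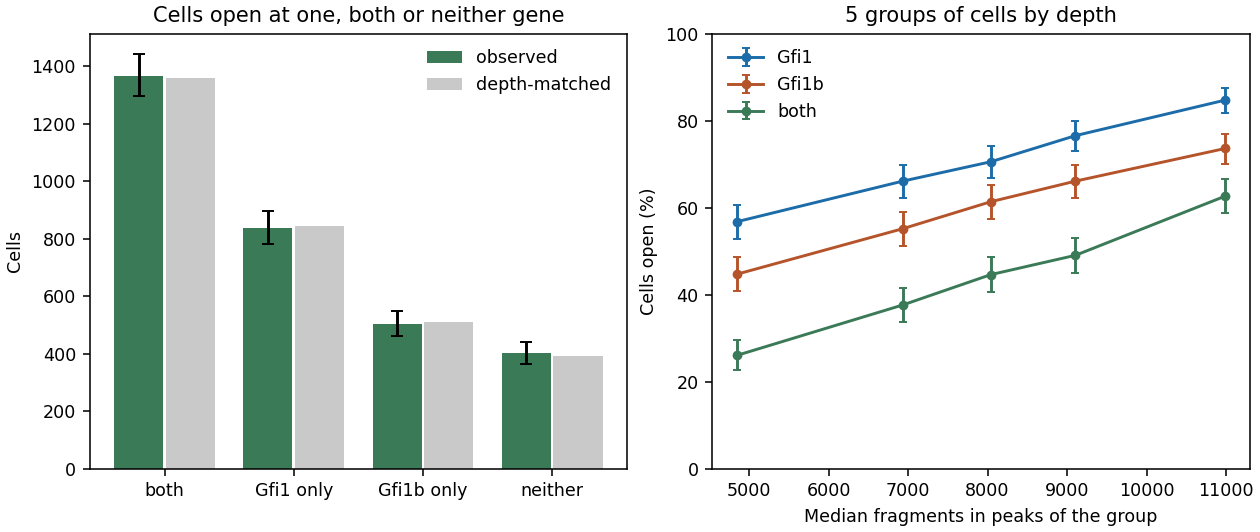
Left, cells open at both genes, at *Gfi1* only, at *Gfi1b* only or at neither (y axis, cells), as observed with exact 95% Poisson intervals and as depth-matched; 1367 cells were open at both against 1359.8. Right, share of cells open (%, exact 95% binomial intervals) in 5 groups of cells by fragments in peaks, rising from 26.0% to 62.6% for both genes.

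Pairs of sites of the 2 genes behaved in the same way, and pairs within a locus were open together somewhat more often. Over the 71 pairs of a *Gfi1* site with a *Gfi1b* site that had at least 5 depth-matched cells, none had an interval that left out the depth-matched number, and the summed ratio was 1.01. The pair of strongest sites, -33.4 kb of *Gfi1* and +23.7 kb of *Gfi1b*, was open in 390 cells against 369.7 (ratio 1.05, interval 0.953 to 1.16). Among the 23 such pairs within the *Gfi1* locus the summed ratio was 1.07 and 2 pairs were higher, both inside *Evi5*. The -23.9 and -33.4 kb sites were open together in 202 cells against 172.6 (ratio 1.17, interval 1.01 to 1.34). The -23.9 and -42.4 kb sites were open together in 49 cells against 34.6 (ratio 1.42, interval 1.05 to 1.87). Among the 41 pairs within the *Gfi1b* locus the summed ratio was 1.13 and no pair passed.

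Distal bins elsewhere give the background for such pairs. Of 28965 pairs of distal bins 2 to 100 kb apart, each open in at least 5% of cells, 3.46% were higher than depth-matched and 0.418% lower, with a summed ratio of 1.05. Of 11363 pairs of bins on different chromosomes, 1.19% were higher and 0.783% lower, with a summed ratio of 1.01. At this resolution the *Gfi1* window had 10 pairs (summed ratio 1.10), of which 3 were higher, and the *Gfi1b* window 9 pairs (summed ratio 1.084), of which 1 was higher. The ratio of the -23.9 and -33.4 kb bins (178 cells against 147.5, ratio 1.21) was above that of 80.9% of all such pairs. The others that were higher paired the -42.4 kb bin with the -23.9 kb bin (36 cells against 24.7, ratio 1.46, above 96.4%) and with the bin at +4.1 kb (29 cells against 19.2, ratio 1.51, above 97.4%). The lowest ratio was that of the +4.1 and -23.9 kb bins (29 cells against 35.7, ratio 0.812, above 8.09%). That of the 23.7 and 19.7 kb bins of *Gfi1b* (51 cells against 37.8, ratio 1.35) was above 92.5%.

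Few genes of the lists were called as open together with a member more or less often than depth gave. For every protein-coding promoter on another chromosome, cells open at it and at a member were counted against the depth-matched number, where that was at least 5. With the *Gfi1* promoter, 0.991% of 13515 promoters were higher and 0.459% lower; with the *Gfi1b* promoter, 0.885% of 13442 were higher and 0.417% lower. With the open sites of *Gfi1*, 0% of 15982 promoters were higher and 0% lower, and with those of *Gfi1b*, 0% of 15504 were higher and 0.0258% lower. Of the 8 SNAG partners, *Rcor3* was higher with the *Gfi1* promoter (81 cells against 64.3, ratio 1.26, interval 1.00 to 1.57), and *Kdm1a* was not (88 cells against 93.2, ratio 0.944). Of the 9 platelet genes with at least 5 depth-matched cells with the *Gfi1* promoter, the integrin gene *Itgb3* was lower (25 cells against 38.6, ratio 0.648, interval 0.419 to 0.956). None of the 18 blood transcription factors, 12 lineage factors and 13 described targets counted with the *Gfi1* promoter was higher or lower, and no listed gene was with the *Gfi1b* promoter. No listed gene was called with the sites of either gene. The Poisson interval is wide there beside the counting spread with totals held fixed (for both members, 1295 to 1441 cells against an SD of 11.9). It could therefore miss departures in either direction. Those sites are also open in 70.9% and 60.2% of cells, so the ratio has little room to rise. Genes open in few cells could not have been called higher. *Clec1b*, for example, was open in 16 cells, all of them open at the *Gfi1* sites (ratio 1.35, interval 0.771 to 2.19). Among promoters open in at least 10% of cells, the highest ratios with the *Gfi1* promoter were those of *Osr2* (1.598), *Marveld3* (1.54) and *Wdr83* (1.46), and the lowest those of *Dock3* (0.568), *Abcb6* (0.568) and *Ccp110* (0.595). With the *Gfi1b* promoter the highest were *Kti12* (1.43), *A730015C16Rik* (1.43) and *Cgas* (1.43), and the lowest *Map3k8* (0.653), *Mfsd14b* (0.655) and *Kcna7* (0.656). These genes are the ends of 9494 and 9359 ratios and have no known tie to the members that the data address.

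RNA depth was compared between cells open and not open at each locus, within strata of fragments in peaks. The counts of single genes were not used here, so the RNA of *Gfi1* and *Gfi1b* is not described. Cells open at the *Gfi1* sites had a mean of 4163 RNA UMIs and the others 4341 (ratio 0.959), while their mean ATAC fragments were 12616 and 12291, so the strata did not match total fragments fully. For the *Gfi1b* sites the means were 4279 and 4154 (ratio 1.03). At the promoters the ratios were 1.01 for *Gfi1* and 1.03 for *Gfi1b*, and the median over 12535 promoters was 1.02 (0.973 to 1.07 for the central 95% of promoters). The ratio of the *Gfi1* sites was under that range, with 0.790% of promoters lower, although a union of sites open in most cells is another measure than a promoter. That of the *Gfi1b* sites was above 69.8% of promoters. The share of RNA UMIs in introns was 47.8% in both groups for *Gfi1* sites, and 47.6% against 48.1% for *Gfi1b* sites.

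Openness was also read along an axis from multilineage to platelet-biased HSCs. The study scores its cells from lists of chromatin peaks, which were not used here, so the score below has another input and formula. Cells were divided into 3 groups of equal size by the share of fragments on platelet-biased (PLT) genes among those on PLT and multilineage (MUL) genes. The 58 PLT and 51 MUL genes off chromosomes 2 and 5 were used, with a median of 69 fragments a cell. The median PLT share was 55.6%, 62.7% and 69.7% in the 3 groups of 1036 cells. *Gfi1* sites were open in 733, 748 and 723 cells from the lowest to the highest group (70.8%, 72.2% and 69.8%). *Gfi1b* sites were open in 632, 645 and 593 cells (61.0%, 62.3% and 57.2%). The intervals of the lowest and highest groups overlapped for both genes (67.9 to 73.5 and 66.9 to 72.6 for *Gfi1*, 58.0 to 64.0 and 54.2 to 60.3 for *Gfi1b*). Within strata of fragments in peaks, the highest minus the lowest group was -0.0056 percentage points for *Gfi1* and -3.45 for *Gfi1b*. With strata of all ATAC fragments the differences were 0.16 and -2.77, and with the score taken from 1 kb at the starts they were -1.26 and 0.058, so the sign for *Gfi1b* depended on how the score was made. The -33.4 kb site was open in 38.5%, 39.9% and 38.2% of cells and the +23.7 kb site in 29.4%, 31.4% and 25.4%. At the +23.7 kb site the intervals of the lowest and highest groups overlapped (26.7 to 32.3 and 22.8 to 28.2). The +36.7 kb site of *Gfi1b* went the other way, with 12.4%, 14.6% and 14.4%, as did the +37.6 kb site of *Gfi1*, with 13.9%, 16.3% and 15.7%. For both of these sites the intervals of the lowest and highest groups overlapped (10.4 to 14.5 and 12.3 to 16.7, and 11.8 to 16.2 and 13.6 to 18.1). The *Gfi1b* promoter site had 16.2%, 18.1% and 12.5%, with overlapping intervals of 14.02 to 18.6 in the lowest group and 10.6 to 14.7 in the highest. Relative to its level, the difference at the *Gfi1* promoter window was above that of 7.04% of 12449 promoters, and at the *Gfi1b* promoter window above that of 21.4%. The score rests on few fragments a cell, and the groups were not compared by a test because cells of 1 library are not replicates.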

How the data were processed

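For the preparation of 8-week-old mice described here, the authors deposited the position of every ATAC fragment and, for every barcode, counts of reads, UMIs, genes and fragments, made with Cell Ranger ARC 2.0.2 on mm10. The deposited counts are not normalized, and duplicates were already merged into fragments (mean of 4.50 read pairs a fragment). The antibody tag counts were not used here. Fragments of called cells on chromosomes 1 to 19 and X numbered 38414325. No fragment ended beyond its chromosome in GRCm38. Genes came from GENCODE vM21. The members and gene lists were chosen with earlier results of these data known. Named genes are the members, protein-coding genes in the windows, the 2 highest and 2 lowest of each list, and the 3 highest and 3 lowest co-opening ratios among promoters open in at least 10% of cells. 1 gene that this rule names is not reported here. Genes named beside these, such as *Kdm1a*, were chosen after their values were seen. Motifs were searched in the 300 bp with most ends of each site. The PLT and MUL gene names came from the study's supplement, which chose them on other samples. Depth-matched numbers used 20 strata, and a pair was called when the exact 95% Poisson interval left that number out. For features open in many cells this interval is wider than the counting spread with totals held fixed, so few calls are made. The 5% of used cells with the most positions covered by more than 2 fragments (155 cells) were marked as possible doublets and kept. That share was set in advance and is not a count of detected doublets. In simulated cells, co-opening with a promoter open in 10% of cells was called for 77.5% of 102 genes with a median true ratio of 1.42, for 99.0% of 98 genes with 1.79, and for 1.10% of unchanged genes. The simulated partners were promoters of varied openness, all over 5% of cells. These shares therefore do not give the chance of a call for the 2 member promoters (31.6 depth-matched cells). The open sites were not simulated. Python 3.11.15, numpy, scipy and pandas were used. Alternatives changed the cells, depth, placement of fragments, window, site limit and definition of open.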

Additional observations from a re-analysis of the deposited data

How the results depend on the processing

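The share of cells open depended on depth and on what was counted, and the ratio to the depth-matched number did so less. The *Gfi1* promoter share moved from 8.91% to 7.59% with all called cells, 2.61% with cells thinned to 3000 fragments, 7.82% with fragments placed by midpoint, 14.2% with 1000 bp on either side and 7.30% at the 5'-most start. The *Gfi1b* promoter share moved from 10.3% to 8.73%, 2.96%, 7.95% and 15.4% under the first 4 of these. *Gfi1* had 13 sites at 3 times the median and 18 after thinning, where the limit falls to few cells, and *Gfi1b* had 7 at 10 times the median. Cells open at both and at neither gene were 36.7% and 23.0% with all called cells, 7.95% and 48.9% after thinning, 1.16% and 81.9% for promoters, 64.3% and 4.57% for whole windows, 9.11% and 52.1% for the gene body plus 2 kb, 15.6% and 41.9% with at least 2 fragments, 33.4% and 20.5% for distal sites, 2.83% and 72.1% for named positions with the promoter, and 34.4% and 19.3% without the strongest *Gfi1* site, an alternative added after seeing the data. Both were open in 41.7% without the cells marked as possible doublets. The ratio of cells open at both to the depth-matched number was 0.921 after thinning, 1.14 for promoters, 1.09 for the gene body plus 2 kb and 1.07 for named positions, and moved by less than its counting interval in the 12 other alternatives. The RNA ratio of *Gfi1* was 1.01 for the promoter in place of the sites. No paired analysis was possible because there is 1 library of each kind and no replicates that could be paired. With 1 library, differences between mice and preparations cannot be seen, and a site open in fewer than about 5 times the median bin was not counted.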
